A study of Mus musculus with 96 samples.

Results

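The genes described here encode the replicative helicase and factors that load it, activate it or block its loading. The helicase subunits are Mcm2, Mcm3, Mcm4, Mcm5, Mcm6 and Mcm7. Cdc6 and Cdt1 take part in loading, Mcm10 in activation, and Gmnn encodes an inhibitor of Cdt1. The genes were chosen by name, and all 10 were found by exact symbol among the 40202 genes of each count file. Transcripts were counted in 96 libraries, each holding 1 sorted C10 cell, from a mouse line of lung origin labelled as alveolar type II epithelium. The 48 control libraries came from untreated cells, and the other 48 from cells given RO-3306, known as a blocker of the mitotic kinase CDK1, at a labelled 10 nM for 36 h. Both groups share the line and the culture medium, and the labels name no genotype, passage or separate culture. Each treatment was therefore 1 sample, cells were not treated as replicates, and no p-value was computed. The comparison asks how licensing transcripts differed between the treated and the untreated cells.

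Before DNA can be copied, the origin recognition complex, with Cdc6 and Cdt1, loads rings of Mcm2 to Mcm7 onto origins, a step called licensing that takes place from late mitosis through G1. Loading is then shut off: geminin, the product of Gmnn, binds Cdt1, and Cdt1 is also degraded in S phase, while Mcm10 takes part in turning loaded rings into active helicases. Transcription of many of these genes is known to be driven by E2F factors around the entry into S phase, and geminin protein is known to persist through S and G2 until the anaphase-promoting complex removes it.

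Cells whose libraries reached 50000 counts and 1000 detected genes were kept, which left 29 control and 37 RO-3306 cells. Totals of kept cells ran from 59979 to 6457215 counts in control (median 1753427) and from 295005 to 5321880 in RO-3306 (median 2234309). Thinned to an equal 639000 reads, 25 control cells had a median of 4576 genes with a count and 34 RO-3306 cells had 5958. In 1 kept RO-3306 cell 56.0% of counts were mitochondrial. Of 8 alveolar type II genes, no kept cell had a count of the surfactant genes Sftpa1, Sftpc and Sftpd or of the phosphate transporter Slc34a2. A count of Sftpb was found in 1 RO-3306 cell. The other 3, Abca3, Lpcat1 and Lamp3, made up nearly all of the list's sums of 23.2 CPM in control and 24.1 in RO-3306, with a count of some gene of the list in 16 of 29 and 23 of 37 cells. Sums of 6 mesenchymal genes were 5579 CPM, counts scaled to a group or cell total of 1e6, in control and 2523 in RO-3306, against 1.78 and 0.978 for 6 epithelial genes. Macrophage genes summed to 32.1 and 15.9 CPM and endothelial genes to 0.619 and 0.149. The part of these differences in the results below was not tested.

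On the GRCm39 assembly of the count files, the helicase subunit genes lie on chromosomes 6 (Mcm2, 88860456 to 88875762), 1 (Mcm3, 20873188 to 20890536), 16 (Mcm4, 15441761 to 15455264), 8 (Mcm5, 75836096 to 75855067), 1 (Mcm6, 128259312 to 128287442) and 5 (Mcm7, 138162845 to 138170675). Mcm10 lies on chromosome 2 (4995535 to 5017602), Cdc6 on 11 (98798627 to 98814768), Cdt1 on 8 (123294754 to 123299869) and Gmnn on 13 (24935828 to 24954222). Reads were counted over these whole spans, introns included. The Mcm7 span overlaps other annotated genes over 8.26% of its length (Ap4m1 and the microRNA genes Mir106b, Mir25 and Mir93), so reads there cannot be assigned to 1 gene. None of the other 9 spans overlaps another gene. Fractional counts, left by reads that mapped to several sites, were found in 6.25% (Cdc6) to 48% (Mcm10) of the libraries with a count of the gene.

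Promoter sequences of 300 bases, from 250 before to 50 after the annotated start, were found in RefSeq for 8 of the 10 genes, Mcm2, Mcm3, Mcm5, Mcm6, Mcm7, Mcm10, Cdc6 and Cdt1. They are on GRCm38.p6, an older assembly than that of the count files, so their coordinates are not to be set beside the gene spans above. The promoters of the 3 genes with the lowest ratios of treated to control level, Mcm6, Cdc6 and Cdt1, are printed with that of Mcm2, which was also lower, because they differ in the E2F words they hold. The words searched were TTTCCCGC, TTTGGCGC, TTTCGCGC and TTTGCCGC on both strands, and overlapping matches were all counted. Capitals mark each match, on either strand, and each promoter reads 5′ to 3′ along its gene.
Mcm6 (chr1:128359656-128359955, minus strand): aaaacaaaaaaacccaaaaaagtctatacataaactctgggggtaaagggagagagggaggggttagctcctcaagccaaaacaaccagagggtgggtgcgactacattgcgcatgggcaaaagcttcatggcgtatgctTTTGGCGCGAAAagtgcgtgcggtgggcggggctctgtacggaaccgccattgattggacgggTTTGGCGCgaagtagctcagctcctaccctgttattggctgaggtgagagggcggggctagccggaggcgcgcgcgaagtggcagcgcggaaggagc
Cdc6 (chr11:98907901-98908200, plus strand): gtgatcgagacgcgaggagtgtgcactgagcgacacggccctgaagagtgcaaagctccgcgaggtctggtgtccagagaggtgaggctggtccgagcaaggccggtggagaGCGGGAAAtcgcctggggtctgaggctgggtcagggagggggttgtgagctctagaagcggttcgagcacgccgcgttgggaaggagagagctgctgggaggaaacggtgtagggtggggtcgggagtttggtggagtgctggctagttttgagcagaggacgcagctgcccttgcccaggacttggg
Cdt1 (chr8:122567765-122568064, plus strand): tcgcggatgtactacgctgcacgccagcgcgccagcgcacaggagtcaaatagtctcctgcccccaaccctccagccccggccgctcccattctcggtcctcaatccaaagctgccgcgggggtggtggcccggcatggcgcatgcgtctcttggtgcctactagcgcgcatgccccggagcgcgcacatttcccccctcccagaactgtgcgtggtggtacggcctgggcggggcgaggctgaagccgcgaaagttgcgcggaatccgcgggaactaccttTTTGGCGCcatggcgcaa
Mcm2 (chr6:88898731-88899030, minus strand): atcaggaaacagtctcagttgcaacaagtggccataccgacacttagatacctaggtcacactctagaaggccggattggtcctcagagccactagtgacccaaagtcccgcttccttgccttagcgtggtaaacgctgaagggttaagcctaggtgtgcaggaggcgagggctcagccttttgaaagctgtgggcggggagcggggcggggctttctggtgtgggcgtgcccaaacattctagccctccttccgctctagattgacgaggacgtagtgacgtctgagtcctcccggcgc
The Mcm6 promoter held 3 matches, of which a pair overlap in 1 stretch of capitals, Cdc6 and Cdt1 held 1 each, and Mcm2 held 0. Of the other matched genes, Mcm3, Mcm5 and Mcm7 held 2 each, those of Mcm5 overlapping and those of Mcm7 in 1 of its 2 promoters, and Mcm10 held 0. In all, 6 of 8 matched genes held at least 1 word, against 2.60% of the 27025 genes in the table (2.26% of its 32851 promoters). A word of the cell cycle homology region, TTTGAA, was found in 1 of the 8 genes, Mcm2, and in 20.2% of all genes in the table. A match is a run of letters and does not show that a factor binds there.

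Transcripts of the helicase ring were lower in RO-3306 cells. Summed over Mcm2 to Mcm7, the level per cell ran from 1.76 to 2147 CPM in control (median 994) and from 37.3 to 1441 CPM in RO-3306 (median 517). The ranges overlap, but 3 of 37 RO-3306 cells were above the control median, and 20 of 29 control cells were above the RO-3306 median. With counts summed over cells, the ring genes took 972 CPM (95% Poisson interval 964 to 980) of control counts and 510 CPM of RO-3306 counts (506 to 515), a log2 ratio of -0.93. Every interval given here covers counting error only, of reads for a level and of cells for a share, and none covers the variation between cultures. Reads carry no molecular identifiers and include PCR copies. Log2 ratios are of RO-3306 over control CPM with 1 CPM added to both, which understates the difference of low genes. Library titles include 1 of the letters A, B, C and D, with no meaning stated, and the sum was lower in each lettered set, with log2 ratios of -0.48 in A, -1.10 in B, -1.19 in C and -1.64 in D. These sets are not replicates. From A to D they kept 10, 8, 6 and 5 control cells and 10, 10, 11 and 6 RO-3306 cells, so a ratio within a set rests on few cells.

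Across the 10 genes the median log2 ratio was -1.04, and the median of all 9374 genes averaging 5 CPM or more was -0.22. Log2 ratios were negative for 9 of the 10, where 59.0% of all genes were negative. At or below -1 were 5 (Mcm2, Mcm4, Mcm6, Cdc6 and Cdt1), against 24.2% of all genes, and these 5 were also lower in each of the 4 lettered sets, against 6.43% of all genes. At or above 1 were 0 of the 10, where 12.2% of all genes were, and 7.23% of all genes were so with a higher level in every set. Higher in all 4 sets were 0 of the 10, against 13.1% of all genes. Lower in all 4 sets, whatever the size, were the same 5, where the share of all genes was 10.3%. The number at or below -1 was 5 under the scaling factors of edgeR (20.3% of all genes) and of DESeq2 (23.8%). It was 4 without set B or set D and 7 without set C, and no share of all genes is given for these. With the median ratio of genes of like mRNA length subtracted it was 2 (Cdc6 and Cdt1), against 15.4% of all genes. The number lower in all 4 sets was 3 with edgeR's factors (Mcm2, Cdc6 and Cdt1, with 7.56% of all genes). With DESeq2's it was 4 (all but Mcm2, with 9.77% of all genes). It was 4 with cells weighted equally (all but Mcm4, with 9% of all genes) and 3 after thinning (Mcm2, Mcm6 and Cdt1, with 9.23%). Cdt1 was the gene lower in all 4 sets under each of these settings. Ratios went with mRNA length: the median log2 ratio was -0.57 for genes with an mRNA about as long as that of Mcm6 and 0.25 for genes with one about as short as that of Gmnn. With the median ratio of genes of like mRNA length subtracted, the ring sum went from -0.93 to -0.53 and the median of the 10 genes from -1.04 to -0.66.

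**Figure D1:**
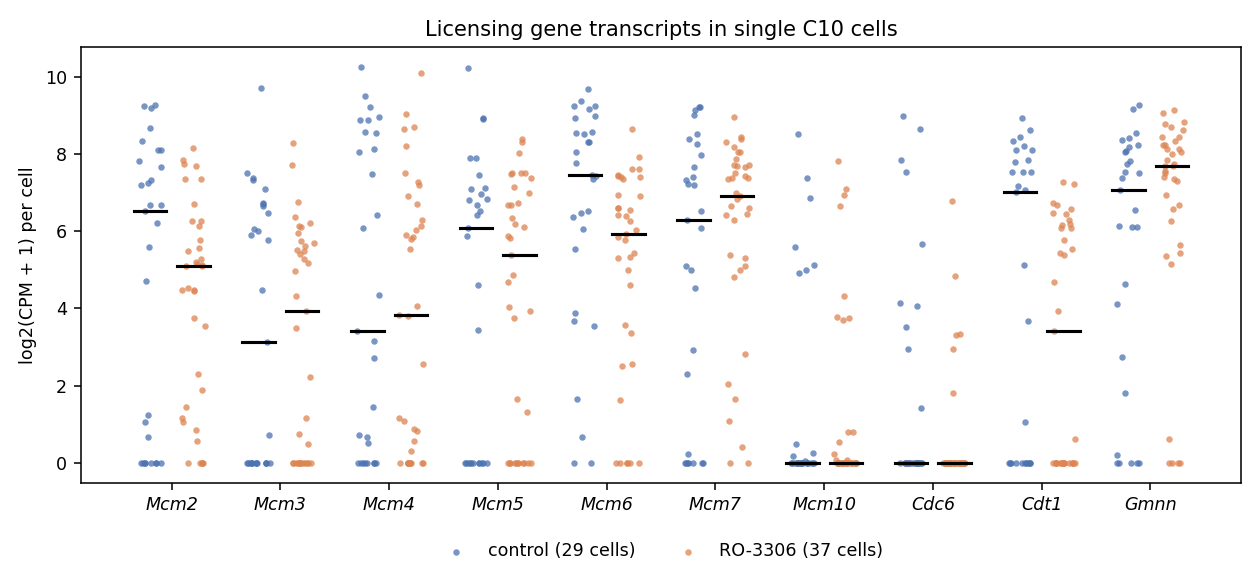
Level of each licensing gene in every kept cell as log2(CPM + 1), for 29 control and 37 RO-3306 cells, with 1 point per cell and a bar at each median. Cells at 0 occur for every gene in both groups. The treated median is lower for Mcm2, Mcm5, Mcm6 and Cdt1 and higher for Mcm3, Mcm4, Mcm7 and Gmnn.

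Within the ring, Mcm6 had the lowest ratio of summed counts, but this order was not kept in every setting: with the median for like mRNA length subtracted, Mcm2 was at -0.83 and Mcm6 at -0.76. Without set B, Mcm2 was lowest at -1.52 (Mcm6 -1.04), and without set C it was Mcm4 at -1.82 (Mcm6 -1.09). Levels of Mcm6, a subunit of the ring, ran from 0 to 820 CPM in control cells (median 174) and from 0 to 398 CPM in RO-3306 cells (median 59.4). Only 5 of 37 RO-3306 cells exceeded the control median, while 21 of 29 control cells exceeded the RO-3306 median. The summed level was 232 CPM (228 to 236) in control and 91.2 CPM (89.3 to 93.1) in RO-3306, a log2 ratio of -1.34. It was lower in all 4 lettered sets, at -0.13, -2.45, -2.35 and -1.23 in A to D, although in set A it was 0.02 with edgeR's factors.

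Mcm2, whose protein also binds histones, ran from 0 to 611 CPM in control cells (median 91.0) and from 0 to 284 CPM in RO-3306 cells (median 33.4). The highest treated cell was thus below the highest control cell, and 7 of 37 treated cells were above the control median. The sums were 139 CPM (136 to 142) and 61.4 CPM (59.8 to 63.0), a log2 ratio of -1.16. By set the ratios were -1.29, -0.34, -1.59 and -3.10, and with DESeq2's factors the value in set B was 0.09.

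Mcm4, a subunit of the catalytic core of the ring, was above 100 CPM in 11 of 29 control and 10 of 37 RO-3306 cells. It ran from 0 to 1210 CPM in control cells (median 9.75) and from 0 to 1083 CPM in RO-3306 cells (median 13.1), and the treated median was the higher. The ranges nearly coincide through 1 treated cell, C11, with 2159 genes and no count of another ring gene. The next highest cells were at 725 CPM (control D9) and 519 CPM (RO-3306 B7). With at least 500000 counts and 3000 genes per cell, which leaves out C11, the log2 ratio was -1.36. The sums were 202 CPM (198 to 205) and 86.8 CPM (84.9 to 88.7), a log2 ratio of -1.21. Without control cell B1, with 22.9% of the control counts, the ratio was -0.89. Without RO-3306 cell C10, with 17.6% of the treated counts, it was -1.43. By set the Mcm4 ratios were -0.04, -1.83, -0.25 and -5.51, so set D had the lowest value of the 4. That value rests on 5 control and 6 RO-3306 cells. The deepest of these control cells, D9 with 3275478 counts, was at 725 CPM. Without that set the log2 ratio was -0.62, and without set C it was -1.82. With edgeR's factors, Mcm4 was at 0.11 in set A and 0.08 in set C. With cells weighted equally these values were 0.42 and 0.38.

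Mcm5 and Mcm3 were lower in sum but not in every set. Mcm5, the partner of Mcm2 at the gate of the ring, ran from 0 to 1185 CPM in control cells (median 66.7) and from 0 to 333 CPM in RO-3306 cells (median 40.5), with 16 of 37 treated cells above the control median. Its sums were 133 CPM (130 to 136) and 79.6 CPM (77.8 to 81.4), a log2 ratio of -0.73, with 0.60 in set C and -1.74 in set D. The Mcm5 ratio was -0.47 without control cell D7 and -0.95 without RO-3306 cell B5. Mcm3, a ring subunit next to Mcm5, ran from 0 to 834 CPM in control cells (median 7.72) and from 0 to 312 CPM in RO-3306 cells (median 14.2). For Mcm3 the treated median was higher and the treated sum lower, at 43.4 CPM (42.1 to 44.8) against 82.9 CPM (80.7 to 85.1), a log2 ratio of -0.92. Control cell A8 alone held 20.3% of the control Mcm3 counts, and RO-3306 cell B5 held 21.4% of the treated ones. The Mcm3 ratio was -0.62 without A8 and -1.19 without B5. By set it was 1.38 in set C against -1.997 in set A.

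Mcm7, a subunit of the catalytic core together with Mcm4 and Mcm6, was the ring gene with the ratio nearest to 0. It ran from 0 to 589 CPM in control cells (median 76.8) and from 0 to 491 CPM in RO-3306 cells (median 120). More than the control median was found in 25 of 37 treated cells, and the groups overlap almost throughout. The sums were 184 CPM (180 to 187) and 148 CPM (146 to 150), a log2 ratio of -0.31. In the lettered sets it was -0.33, -0.23, -1.26 and 0.01, and after subtraction of the median for like mRNA length it was -0.05.

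**Figure D2:**
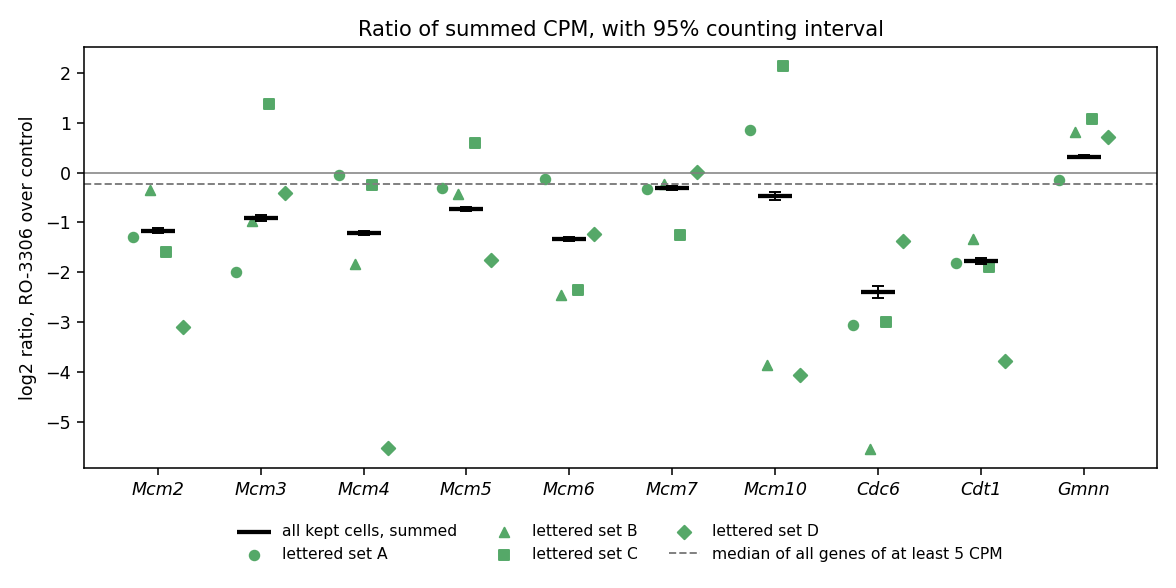
Log2 ratio of RO-3306 over control summed CPM (1 CPM added) for each licensing gene, with a black bar for all kept cells and its 95% counting interval, symbols for lettered sets A to D, and a dashed line at the median of all genes of at least 5 CPM (-0.22). Cdt1 lies below 0 in every set and Mcm10 on both sides, and the Cdc6 symbols of sets A and B, where no treated cell had a count, are set by the 1 CPM added.

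Cdt1, the loading factor that geminin binds, had the fewest treated cells above the control median of the 10 genes. It ran from 0 to 487 CPM in control cells (median 128) and from 0 to 153 CPM in RO-3306 cells (median 9.60). Only 2 of 37 treated cells exceeded the control median, and 4 of 37 were above 100 CPM against 15 of 29 control cells. The sums were 111 CPM (109 to 114) and 31.9 CPM (30.7 to 33.03), a log2 ratio of -1.77. It was -1.81, -1.34, -1.89 and -3.77 in sets A to D, and between -1.91 and -1.65 with each kept cell left out in turn. The share of cells with a Cdt1 count was close in the groups at equal depth, with 16 of 25 control cells (64.0%, 95% Clopper-Pearson interval 42.5% to 82.0%) and 19 of 34 RO-3306 cells (55.9%, 37.9% to 72.8%). Among cells with a count at full depth, the median was 203 CPM for control and 68.9 CPM for RO-3306.

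Cdc6, the ATPase that joins the origin recognition complex to load the ring, was sparse. It was counted in 10 of 29 control cells (34.5%, 17.9% to 54.3%) and in 6 of 37 RO-3306 cells (16.2%, 6.19% to 32.01%), and the median cell of both groups was at 0. The highest control cell held 501 CPM and the highest RO-3306 cell 109 CPM. The sums were 36.7 CPM (35.3 to 38.2) and 6.20 CPM (5.71 to 6.73), a log2 ratio of -2.39, the lowest of the 10 genes. Few cells carried it: control cell B5 held 47.7% of the control counts, and without it the log2 ratio was -1.60. RO-3306 cell C6 held 63.2% of the treated counts, and without that cell the log2 ratio was -3.49. No RO-3306 cell of sets A and B had a count. Among control cells a count was found in 3 of 10 of set A and 2 of 8 of set B. A floor was set at 3 counts over the 10 treated cells of each set. Control Cdc6 lay 42.8-fold above it in set A (7.31 CPM against 0.171) and 342-fold in set B (45.3 CPM against 0.132). The set B value rests on cell B5, with 99.1% of the control counts of that set. Without B5 the control level was 0.531 CPM, 4.01-fold above the floor. In set A the control level was 28.4-fold above it without control cell A3. The floor counts reads and not cells, so with so few cells with a count these folds are no lower limits on a difference. In set D the log2 ratio was -1.37 from summed counts and 0.96 after thinning.

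Mcm10, which takes part in activating loaded helicases, gave no stable direction. It was counted in 11 of 29 control and 14 of 37 RO-3306 cells, the median cell was at 0 in both groups, and the highest cells held 365 and 224 CPM. The sums were 34.5 CPM (33.1 to 35.9) and 24.7 CPM (23.7 to 25.7), a log2 ratio of -0.46. Control cell B1 held 40.4% of the control counts and RO-3306 cell C4 held 45.4% of the treated counts. The log2 ratio was 0.20 without control B1 and -1.22 without RO-3306 C4. It was 0.85 in set A, -3.85 in B, 2.13 in C and -4.05 in D, 0.30 with set B left out, and 0.18 after subtraction of the median for like mRNA length.

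Gmnn, which encodes the Cdt1 inhibitor geminin, was the 1 gene of the 10 with a higher treated level in summed counts, while the medians over cells were also higher for Mcm3, Mcm4 and Mcm7. It ran from 0 to 609 CPM in control cells (median 133) and from 0 to 556 CPM in RO-3306 cells (median 203). The ranges overlap, with 24 of 37 treated cells above the control median and 26 of 37 above 100 CPM, against 15 of 29 control cells above 100 CPM. The sums were 189 CPM (186 to 192) and 236 CPM (233 to 239), a log2 ratio of 0.32. It was -0.14 in set A and 0.81, 1.08 and 0.72 in sets B, C and D, and with edgeR's factors, which put set A at 0.01, Gmnn was higher in all 4 sets. With the median for like mRNA length subtracted, the Gmnn ratio was 0.07, and its mRNA of 1127 nt is the shortest of the 10.

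Cdt1 and Gmnn encode a loader and its inhibitor, so they were also compared within cells. In CPM, Gmnn was 1.70 times Cdt1 in the control sum and 7.41 times in the RO-3306 sum. Per kb of mRNA the ratios were 3.30 and 14.4, a rough measure because reads were counted over whole spans, introns included. Cdt1 was above Gmnn in CPM in 10 of 29 control cells (34.5%, 17.9% to 54.3%) and in 3 of 37 RO-3306 cells (8.11%, 1.70% to 21.9%). At equal depth these were 9 of 25 and 3 of 34 cells. The counting intervals overlap. A count of both was found in 15 of 29 control and 20 of 37 RO-3306 cells. Cdt1 without Gmnn was found in 3 control cells and in 0 of 37 RO-3306 cells, which allows a share of up to 8.11% by 3 cells of 37 and 9.49% by the Clopper-Pearson limit. At equal depth it was found in 3 of 25 control and 1 of 34 RO-3306 cells. Gmnn without Cdt1 was found in 9 control and 13 RO-3306 cells, and neither in 2 and 4.

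**Figure D3:**
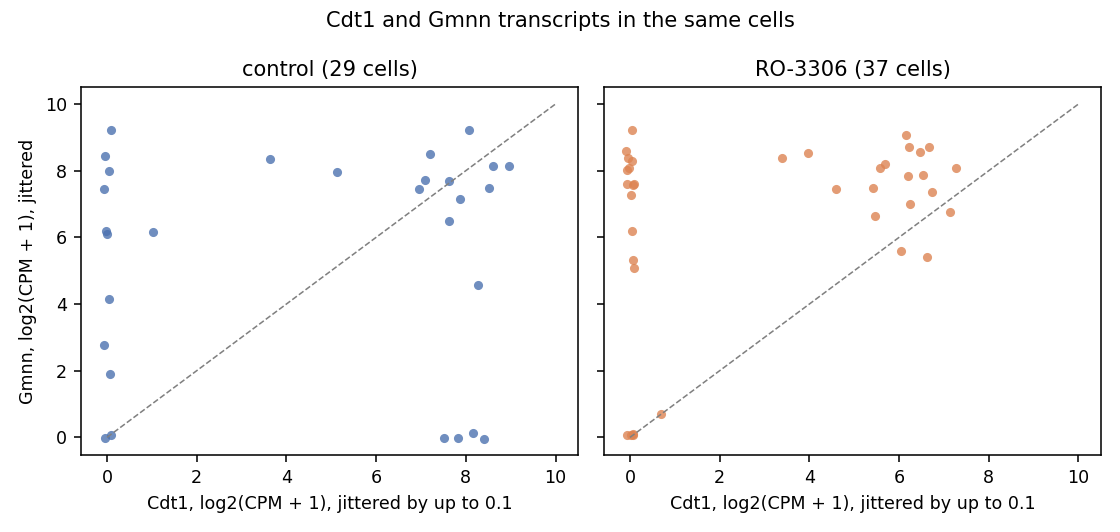
Cdt1 (horizontal) against Gmnn (vertical) in each kept cell, both as log2(CPM + 1) with a small random shift, control on the left and RO-3306 on the right, with a dashed line of equal level. Of the control cells 10 of 29 lie below the line, where Cdt1 exceeds Gmnn, and of the RO-3306 cells 3 of 37.

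The ring is built from 1 copy of each subunit, and levels per kb of mRNA give a rough comparison between the subunit transcripts. Reads were counted over whole spans, introns included, so mRNA length does not fully correct for what was counted. The Mcm6 span is 28131 bp for an mRNA of 4355 nt, and the Mcm7 span 7831 bp for 2962 nt. In control the order was Mcm7 (62.0 CPM per kb), Mcm4 (56.2), Mcm6 (53.3), Mcm2 (41.2), Mcm5 (39.3) and Mcm3 (27.3). In RO-3306 it was Mcm7 (49.95), Mcm4 (24.2), Mcm5 (23.5), Mcm6 (20.9), Mcm2 (18.2) and Mcm3 (14.3). Mcm7 was the highest and Mcm3 the lowest in both groups. The highest was 2.27 times the lowest in control and 3.49 times in RO-3306. Neighbours in these orders lie well within the cell-to-cell ranges given above. Outside the ring, Gmnn stood at 168 and 210 CPM per kb in control and RO-3306, Cdt1 at 50.7 and 14.6, Cdc6 at 7.96 and 1.34, and Mcm10 at 7.08 and 5.07.

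A lower sum did not go with fewer subunits per cell. Thinned to equal depth, the median cell had a count of 4 of the 6 ring genes in control and 5 in RO-3306, and all 6 were counted in 5 of 25 control and 9 of 34 RO-3306 cells. Mcm7 was counted in 20 of 25 control cells (80.0%, 59.3% to 93.2%) and in 32 of 34 RO-3306 cells (94.1%, 80.3% to 99.3%). Mcm2 was counted in 17 of 25 and 27 of 34, Mcm3 in 13 and 21, and Mcm5 in 15 and 23. The treated share was smaller for Mcm6 (22 and 29 cells, 88.0% and 85.3%) and for Mcm4 (17 and 21 cells, 68.0% and 61.8%). RO-3306 cells also had more genes with a count in all at this depth, and its part in these shares was not tested. At full depth, where the treated libraries had the higher median total, Mcm2, Mcm3, Mcm4, Mcm5 and Mcm7 had a lower ratio but a larger share of cells with a count. Of all genes, 39.4% did so at full depth, and no such share is given for equal depth.

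**Figure D4:**
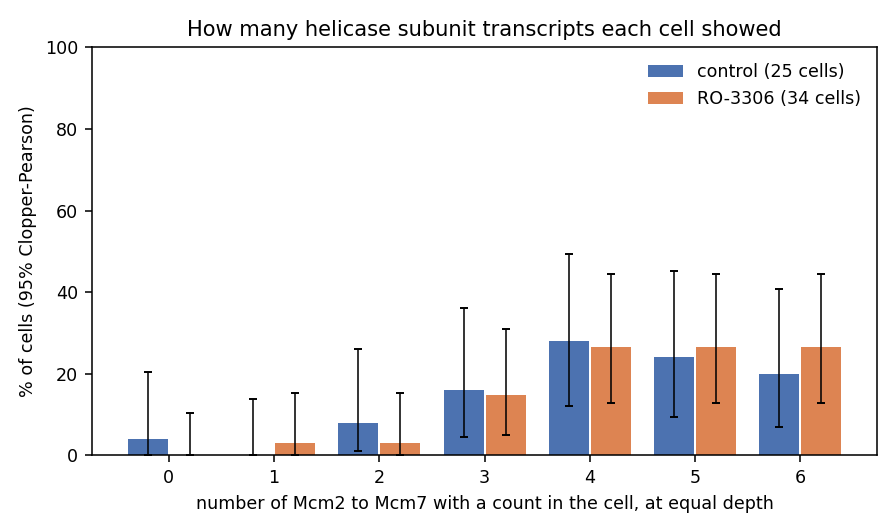
Percent of cells by the number of Mcm2 to Mcm7 with a count after thinning every cell to the same number of reads, for 25 control and 34 RO-3306 cells, with 95% Clopper-Pearson intervals. All 6 were counted in 5 control and 9 RO-3306 cells, and the intervals of the groups overlap at every number.

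Correlations among the ring transcripts across cells were mostly weak. Every ring gene had cells with no count in both groups, and gene pairs of like level were not compared. Whether the ring genes vary together less than other genes was therefore not tested. Among the 15 pairs of Mcm2 to Mcm7 the median Spearman correlation of log2(CPM + 1) at equal depth was 0.19 over 25 control cells (-0.20 for Mcm2 with Mcm4 to 0.47 for Mcm2 with Mcm7). Over 34 RO-3306 cells it was 0.17 (-0.24 for Mcm3 with Mcm4 to 0.52 for Mcm3 with Mcm6). The ring sum and the sum of 20 S phase genes had a Spearman correlation of 0.20 in control and 0.69 in RO-3306, but Pearson's r was 0.72 and 0.66, so no difference between groups is read from them. With 20 G2 and M genes Spearman's value was -0.09 and 0.003, and Pearson's 0.48 and 0.16. Points of a group share culture, treatment and depth, and with most pairs weak no order is read from them. The 5 genes outside the 10 whose level was most like the ring sum over all 59 thinned cells were Tars (0.51), Eif4h (0.49), Nfic (0.48), Eif3a (0.48) and Cyfip2 (0.48), of 4588 genes compared, whose median was -0.05. Both groups were pooled for these 5 values, so a difference between groups enters them: within control they were 0.20, 0.40, 0.33, 0.53 and 0.51, and within RO-3306 0.38, 0.25, 0.26, -0.02 and 0.23.

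Beside the 10 genes stood 43 others in 5 lists, of which 9 act in Cdt1 and geminin turnover and 13 are E2F, RB and cyclin E genes. At least 5 CPM was reached by 40, with a median log2 ratio of -0.27. Of these, 26 were negative and 14 positive, where 59.0% of all genes were negative. That share also stands beside each count of negative genes in the lists below. Their median was above that of the 10 genes in sets B (-0.38 against -1.16), C (0.74 against -0.75) and D (0.08 against -1.56), and below it in set A (-0.60 against -0.32). In the origin recognition complex, which marks origins for loading, the median was -0.07 and 4 of 6 were negative. Its most abundant gene, Orc6, was at 97.5 and 93.4 CPM, a log2 ratio of -0.06 that changed sign with single cells left out (-0.29 to 0.12). Mcm8, Mcm9 and the ring-binding Mcmbp had a median of -0.08. Mcm8, a helicase of repair, was at 38.8 and 51.7 CPM, a log2 ratio of 0.41 that was 1.30 without control cell A9.

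Genes that fire licensed origins had a median of -0.24, with 6 of 11 negative. None was lower in all 4 sets (10.3% of all genes) and none higher in all 4 (13.1%). The most abundant was Dbf4, the activator of the kinase Cdc7, at 133 and 176 CPM, a log2 ratio of 0.40. Cdc7 itself, named after its values were seen, was at 41.1 and 3.62 CPM, a log2 ratio of -3.19. It was counted in 8 of 29 control and 11 of 37 RO-3306 cells. Genes for the turnover of Cdt1 and geminin had a median of -0.38, with 7 of 9 negative. In that list Ddb1, the adaptor of the CUL4 ubiquitin ligases, was at 209 CPM (205 to 212) in control cells and 81.7 CPM (79.9 to 83.5) in treated cells, a log2 ratio of -1.34. Usp7, a deubiquitinase, was at 34.1 and 4.11 CPM, a log2 ratio of -2.78 that was -3.40 without RO-3306 cell C5. Both were lower in all 4 lettered sets, 2 of the 9 genes of the list, against 10.3% of all genes. The share of all genes that were so and also at or below -1 was 6.43%.

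Among E2F, RB and cyclin E genes the median was -0.61, with 7 of 11 negative. E2f3, an activating E2F, was at 3.58 CPM over the control cells and 31.02 CPM over the treated cells, a log2 ratio of 2.81. It was the 1 gene of the 11 higher in all 4 sets, where 13.1% of all genes were. It was counted in 5 of 29 control and 17 of 37 RO-3306 cells, and the log2 ratio was 4.08 without control cell A5. Summed markers of cell cycle phase differed less than the ring: 20 S phase genes took 2845 CPM in control and 2134 in RO-3306, with a median log2 ratio of -0.48 over the 19 of at least 5 CPM. The most abundant of them, Pcna, the sliding clamp, was at 281 and 216 CPM. Summed G2 and M genes took 4256 and 4680 CPM, with a median of -0.06 and members on both sides. At or below -1 were 6 of 20, against 24.2% of all genes, and at or above 1 were 0, against 12.2%. Mki67, a proliferation marker, was at 105 and 12.5 CPM, a log2 ratio of -2.98, and lower in all 4 sets, as was Ccna2. Ccnb2, Birc5, Ube2c and Cks2 were higher in all 4 sets. Thus 2 of the 20 were lower in every set, against 10.3% of all genes, and 4 were higher, against 13.1%. Phase was not labelled, so a difference in the share of cells in S phase and one in transcript level within a phase cannot be told apart.

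**Figure D5:**
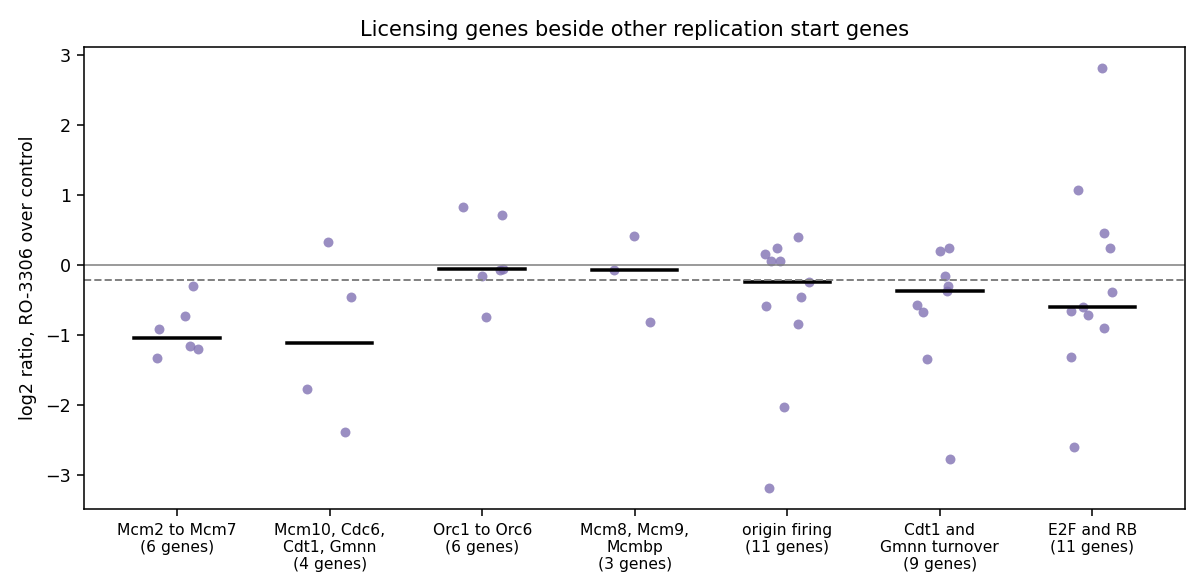
Log2 ratio of RO-3306 over control summed CPM for each gene of at least 5 CPM, with 1 point per gene, a bar at each median, and a dashed line at the median of all such genes (-0.22). The licensing genes are split into the ring and the other 4. The 5 other lists cover origin recognition, Mcm8, Mcm9 and Mcmbp, origin firing, Cdt1 and geminin turnover, and E2F, RB and cyclin E genes. The ring genes have a median of -1.04 and the other 4 licensing genes -1.12, and the medians of the other lists lie between -0.61 and -0.07.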

How the data were processed

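The deposited values are expected counts, 1 file for each library, from featureCounts 2.0.3 per the file headers. These record GRCm39 with its RefSeq annotation, counting over whole gene spans, reads at several sites split into fractions, and no strand option, so sense and antisense reads cannot be told apart. STAR and FastQC are named in the submitters' processing notes without versions. Libraries were made with SMART-seq v4 and read as single reads, per the labels' protocols. Of 96 libraries, 66 passed the minimum of 50000 counts and 1000 genes, and no pair of kept libraries held identical values. No doublet caller was run.

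Within a group, the counts of kept cells were added up and scaled to CPM. Log2 ratios had 1 CPM added, and medians used genes averaging 5 CPM or more. Fractional counts, present in 95 libraries, were rounded for exact Poisson and Clopper-Pearson intervals (95%), thinning and scaling factors. Thinning used 639000 reads, percentile 10 of the totals. A share or level of 0 was given the limit of 3 counts. Levels per kb used the longest coding GENCODE M21 transcript of a symbol. Alternatives used TMM factors from edgeR 4.0.16, size factors from DESeq2 1.42.0 (both under R 4.3.3), other cell filters, weights and pseudocounts. The rest used Python 3.11.15 with scipy 1.17.1.

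The members and lists were chosen with earlier results of these data known. Text names all 10 members, genes of the pathway lists with an absolute log2 ratio of at least 1 and 1 sign in all 4 lettered sets, otherwise the most abundant gene of each list, and the 5 genes most correlated with the ring sum among those counted in enough thinned cells. Cdc7 and the G2 and M genes were named after their values were seen. Simulated cells with 9321 genes were tested for RO-3306 versus control. The right sign came out for 100% of 52 genes lowered by a log2 of 2 and of 38 lowered by a log2 of 1. The median absolute error was 0.22 in both. Every simulated gene was given the same mild spread over cells. Real spread was wider for sparse genes: the standard deviation over mean of Cdc6 was 2.55 in control and 4.15 in RO-3306. The check therefore does not show how well ratios of such genes are recovered.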

Additional observations from a re-analysis of the deposited data

Results flagged for a closer look

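Libraries under the minimum of 50000 counts or 1000 genes entered no comparison, yet Mcm6 was present in those of RO-3306. Over 11 such libraries with 1162603 counts in all, Mcm6 stood at 133.605 CPM (113 to 156), above the 11.7 CPM (3.19 to 30.02) of the 19 such control libraries with 341166 counts. RO-3306 library D5 held 99.4% of these Mcm6 counts. The sum of Mcm2 to Mcm7 in the same RO-3306 libraries was 146.507 CPM (125 to 170), against 41.04 CPM (22.4 to 68.9) in the control ones, and D5 held 91.2% of it. Cdc6 and Mcm10 had no count in any left-out library, which allows levels of up to 8.79 CPM for the control and 2.58 CPM for the RO-3306 libraries.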

How the results depend on the processing

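No paired analysis was possible because the labels number no pairs, the replicate numbers are accession order, and no result comes from a test. The log2 ratio of the sum of Mcm2 to Mcm7 (-0.93) was -0.77 with edgeR's factors, -0.95 with cells weighted equally, -0.95 with at least 500000 counts and 3000 genes, -1.04 after thinning, -0.53 with the median for like mRNA length subtracted, and -1.13, -0.91 and -0.81 without lettered sets A, B and D. It ran from -1.002 to -0.83 with 1 cell left out. The median of the 10 genes (-1.04) was -0.88 with edgeR's factors, -0.90 with cells weighted equally, -1.18 after thinning, -0.66 with the length median subtracted, and -0.93, -1.22 and -0.70 without sets B, C and D. It ran from -1.14 to -0.90 with 1 cell left out. The number of genes lower in all 4 sets was 5 (10.3% of all genes), and 3 with edgeR's factors (7.56%) and after thinning (9.23%). These counts were recomputed with settings chosen after seeing the data. The number at or below -1 was 5, against 24.2% of all genes. It was 2 with the length median subtracted (15.4%), 4 with cells weighted equally (23.4%) and 6 after thinning (24.3%). With 1 cell left out it was 4 to 6, without set B or D 4, and without set C 7. No share of all genes is given for these last settings. edgeR's factors moved the median of all genes from -0.22 to -0.07. Of 140 recomputed ratios of single genes 3 changed sign, all of Mcm10. The cause of these shifts was not tested. Cdc6 and Mcm10 were counted in the fewest cells of the 10 genes.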
